A study of Mus musculus with 13 samples.

Results

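The regions described here were stretches of autosomal chromatin that carried a called H3K27ac peak in every ΔEcad melanoma line of one sex and in no ΔEcad line of the other. Joining every set of overlapping or adjoining peaks from the 5 lists gave 46369 regions on the 19 autosomes. Of these, 1255 (2.71%) had a peak in all 3 female lists and in neither male list and are called female-private. A further 1951 (4.21%) had a peak in both male lists and in no female list and are called male-private. Together the 3206 private regions stood beside 9262 regions (19.97%) called in all 5 lists.

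The study profiled H3K27ac by ChIP-seq in 9 mouse melanoma cell lines that had kept or lost E-cadherin, the cell adhesion protein encoded by Cdh1, and compared the sexes. The female ΔEcad lines were Ma_1057, Ma_1064 and Ma_1069, the male ΔEcad lines were Ma_1062 and Ma_1456, the female Ecad lines were Ma_1014 and Ma_1039, and the male Ecad lines were Ma_1007 and Ma_1181. All were grown from tumours of mice on a C57BL/6J background with an activated NRAS Q61K transgene under the tyrosinase promoter, 1 working copy of Cdkn2a and floxed Cdh1 alleles. In the ΔEcad mice, Cre driven by the tyrosinase promoter removed E-cadherin from the melanocyte lineage. Untreated cells were cultured in F12 medium with 10% FBS. Each list came from 1 line, so sex and line were separated only by 3 lines against 2, and the age of the mice is not given in the sources used here. The labels give 1 input library for each sex and genotype, and which list each input served is not given in the sources used here, so where it served the lists of its own group, a difference between inputs and one between the sides cannot be told apart.

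H3K27ac, acetylation of lysine 27 of histone H3, marks active promoters and active enhancers. Promoter peaks are often shared between cell types, whereas enhancer peaks away from start sites differ more between cell states. E-cadherin binds β-catenin at the cell membrane, and β-catenin that reaches the nucleus acts with TCF and LEF proteins on target genes such as Axin2, Sp5 and Tcf7.

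Bases around the summits of some of the strongest private regions are printed first, chosen by the rank of their peaks within the lists. Most of these regions were also called in Ecad lists, as given below. For each, 200 bases centred on the summit of its strongest peak are shown on the plus strand of GRCm38 (mm10), with matches to 8 consensus motifs in capitals. The female-private windows lay in an intron of Slc7a8 (chr14:54749751-54749950) and between genes near Tamm41 (chr6:115063476-115063675), and held no match.
Slc7a8: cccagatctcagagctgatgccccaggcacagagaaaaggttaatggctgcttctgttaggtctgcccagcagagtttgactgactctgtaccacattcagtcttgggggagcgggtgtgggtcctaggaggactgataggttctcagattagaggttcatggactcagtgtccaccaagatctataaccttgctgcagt
Tamm41: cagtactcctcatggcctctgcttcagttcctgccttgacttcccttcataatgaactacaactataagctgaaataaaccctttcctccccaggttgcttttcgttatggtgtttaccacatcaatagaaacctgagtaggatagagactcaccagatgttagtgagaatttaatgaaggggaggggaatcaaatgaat
The male-private windows had their nearest coding start sites at Dram1 (chr10:88308450-88308649), Gnao1 (chr8:93675203-93675402) and the olfactory receptor gene Olfr477 (chr7:107979495-107979694). The capitals mark a MITF match near Dram1 and a TEAD match near Olfr477.
Dram1: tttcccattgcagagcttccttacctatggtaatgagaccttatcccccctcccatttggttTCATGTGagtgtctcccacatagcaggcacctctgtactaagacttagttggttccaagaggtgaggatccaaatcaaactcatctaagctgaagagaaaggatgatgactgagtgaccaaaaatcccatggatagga
Gnao1: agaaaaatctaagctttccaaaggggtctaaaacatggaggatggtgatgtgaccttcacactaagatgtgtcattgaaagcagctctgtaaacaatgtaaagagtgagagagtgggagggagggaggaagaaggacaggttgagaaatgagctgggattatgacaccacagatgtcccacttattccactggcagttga
Olfr477: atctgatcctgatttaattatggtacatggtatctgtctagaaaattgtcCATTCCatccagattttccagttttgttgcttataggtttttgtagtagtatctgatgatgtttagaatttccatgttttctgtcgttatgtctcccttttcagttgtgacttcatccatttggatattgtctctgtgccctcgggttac

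A second set shows the TCF/LEF words CTTTGAT and CTTTGAA, in capitals on either strand, in female-private regions whose nearest coding gene belonged to the β-catenin pathway. These windows were chosen after their content was seen, and 4 of 26 such windows (15.4%) held a match, beside 16.9% of all female-private windows and 12.04% of windows over all joined regions, so these windows held matches no more often than female-private windows at large. The first window printed (chr12:71482547-71482746) had Dact1 as its nearest coding gene but lay outside it, in an intron of another gene. Its region was 171088 bp from the Dact1 start and was also called in Ma_1014, Ma_1039 and Ma_1007. The others were one near Tnfrsf19 (chr14:61022959-61023158) and one upstream of Kremen1 (chr11:5271501-5271700). Of the Ecad lists, Ma_1181 alone called the region near Tnfrsf19, and none called the one upstream of Kremen1.
Dact1: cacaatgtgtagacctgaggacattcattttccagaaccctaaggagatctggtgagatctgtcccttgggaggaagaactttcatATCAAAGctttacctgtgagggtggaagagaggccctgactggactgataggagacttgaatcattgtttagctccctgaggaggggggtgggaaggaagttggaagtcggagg
Tnfrsf19: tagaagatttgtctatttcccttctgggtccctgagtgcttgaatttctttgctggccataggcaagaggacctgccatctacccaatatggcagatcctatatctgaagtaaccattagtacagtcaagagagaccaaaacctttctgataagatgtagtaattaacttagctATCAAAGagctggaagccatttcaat
Kremen1: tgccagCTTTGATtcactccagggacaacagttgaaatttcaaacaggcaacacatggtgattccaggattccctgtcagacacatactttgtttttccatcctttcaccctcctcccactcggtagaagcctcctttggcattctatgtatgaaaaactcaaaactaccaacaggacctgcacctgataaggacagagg

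The 5 lists differed in length, and no pair of them was close to identical. The female lists held 25090 (Ma_1057), 28799 (Ma_1064) and 20350 (Ma_1069) autosomal peaks, and the male lists held 24513 (Ma_1062) and 29644 (Ma_1456). The means of 24746 ± 4235 (SD, n = 3) and 27079 ± 3628 (SD, n = 2) differed by less than the spread within each side (exact two-sided permutation test over 10 splits, P = 0.5). Pairs of lines from the same side shared 41.0% to 58.3% of the regions called in either line, and pairs across sides shared 32.1% to 48.0%, so these ranges overlapped. Ma_1064 shared 41.0% with Ma_1069 of its own side and 48.0% with Ma_1456 of the other.

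The markers of the labelled cell type were present. Promoters of 6 of 7 melanocyte markers, Sox10 and Mitf among them, carried a peak in all 5 lists, and that of Tyrp1 did so in 3. Promoters of the endothelial, immune and fibroblast markers carried none in the 5 lists, and of the 4 keratinocyte markers only Krt10 did, in Ma_1064 and Ma_1456. No peak lay within 1 kb of a Cdh1 start site in any of the 9 lists, the Ecad lines included, so the lists could not check the deletion.

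Female-private regions lay mostly away from promoters, and male-private regions lay mostly on them. Only 173 of the 1255 female-private regions (13.8%, Wilson 95% interval 11.99% to 15.8%) came within 1 kb of a transcription start site (TSS), against 1015 of 1951 male-private regions (52.0%, 49.8% to 54.2%). Over all joined regions the share was 30.4%, and over those called in all 5 lists it was 54.8%. The female-private share was thus less than that of all regions, and the male-private share was close to that of the regions common to the 5 lines. These intervals cover counting error only, since regions of 1 genome are not replicates.

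The median distance from a female-private region to the nearest TSS was 10986 bp, with quartiles of 3638 and 27257 bp. For male-private regions it was 629 bp, with quartiles of 0 and 10600 bp, and over all regions it was 5919 bp. Introns held 44.3% of the female-private regions, and a further 32.7% lay between genes. Of the male-private regions, 23.5% lay in introns and 17.2% between genes.

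**Figure D1:**
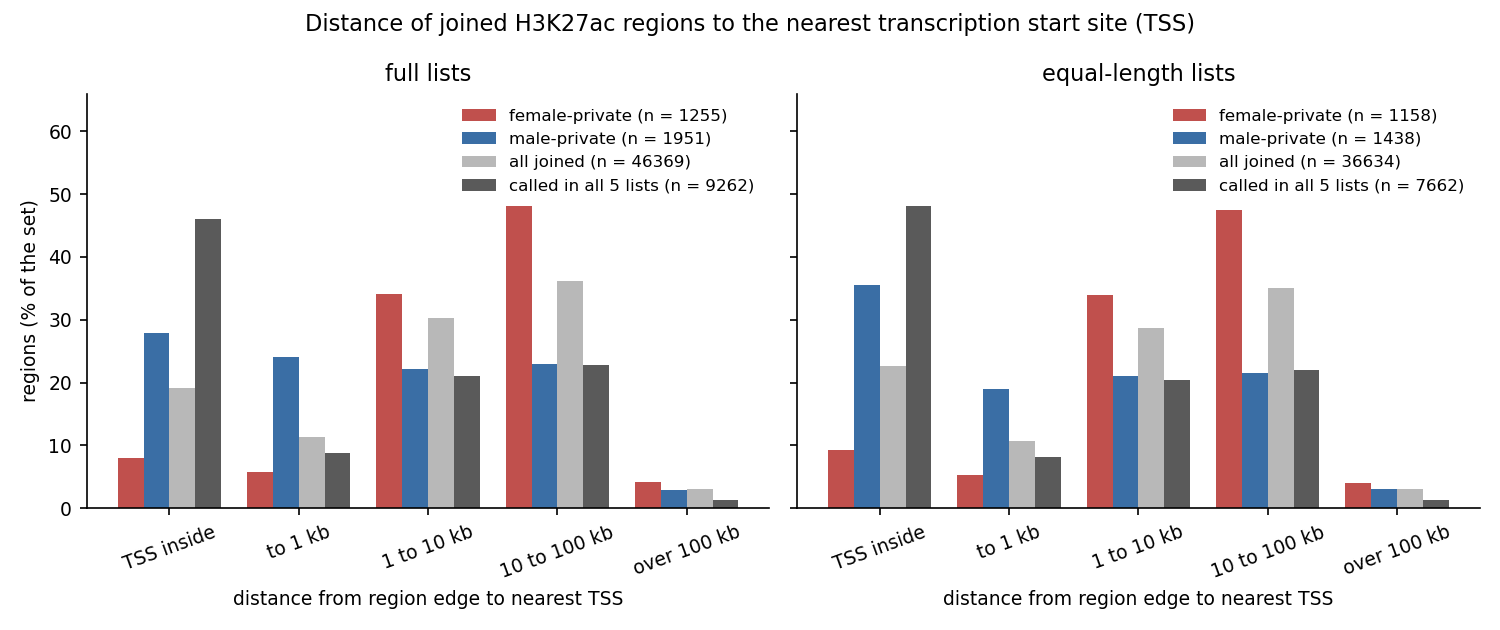
Percent of regions (vertical axis) in 5 bands of distance from the region's edge to the nearest TSS (horizontal axis), for female-private, male-private, all joined and commonly called regions, with full lists on the left and lists cut to 20350 peaks on the right. The band from 10 to 100 kb held 48.0% of the female-private regions and 22.9% of the male-private regions with full lists, and a TSS lay inside 8.05% and 27.9% of them.

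The peak lists themselves tended the same way. Peaks within 1 kb of a TSS made up 35.0%, 33.9% and 35.5% of the female lists and 43.3% and 36.7% of the male lists. The sides did not overlap in this share, and the female mean minus the male mean was −5.23 percentage points (exact two-sided permutation test, P = 0.1, the smallest P that 3 lines against 2 allow). The difference was −1.93 points without Ma_1062 and −8.53 points without Ma_1456.

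Cutting each list to its 20350 strongest peaks by the −log10 of the peak's q-value left the contrast between the sides in place. It gave 1158 female-private regions, of which 14.6% were within 1 kb of a TSS, and 1438 male-private regions, of which 54.5% were. Of the full-list regions, 803 female-private (64.0%) and 942 male-private (48.3%) overlapped a private region of the shortened lists. Since Ma_1069 had the shortest list, its peaks were the same in both runs.

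The counts depended on which lines had to agree. Leaving out Ma_1064, Ma_1069, Ma_1062 or Ma_1456 gave 2492, 2426, 2260 or 2236 female-private regions, all more than 1.5 times the count with every line. Male-private regions numbered 3521 without Ma_1064, 9178 without Ma_1062 and 5656 without Ma_1456, and their share within 1 kb of a TSS was then 51.4%, 25.7% and 37.5%. The preponderance of promoters among male-private regions was therefore a property of the regions that both male lines called, and fell when either was used alone. Just outside the rule were 1926 regions called in all 3 female lists and 1 male list, 2515 in 2 female lists and no male list, and 2106 in both male lists and 1 female list.

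Female-private regions were wider than male-private ones. The median width was 1736 bp (quartiles 1219 and 2576 bp) against 1033 bp (663 and 1589 bp), and 1225 bp over all regions. At least 3 kb were spanned by 201 female-private (16.0%) and 75 male-private regions (3.84%). A joined region widens with the number of lists that call it, and the female side had 1 list more. Without Ma_1057, Ma_1064 or Ma_1069, when 2 lists per side had to agree, the female-private median width was 1533, 1482 or 1281 bp. The male-private median was then 1073, 1147 or 1068 bp. In single lists, the median width of the peaks inside female-private regions was 1336 bp in Ma_1057, 1036 bp in Ma_1064 and 1382 bp in Ma_1069, and that of the peaks inside male-private regions was 675 bp in Ma_1062 and 845 bp in Ma_1456. All 3 female values were above both male values, although over whole lists the median peak width was larger in the male lines (1068 and 1201 bp) than in the female lines (949 to 1024 bp; exact two-sided permutation test, P = 0.1).

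Female-private peaks were also higher in the ranking of their own lists. A peak's rank is given as its percentile by −log10 q within its list, where 100 is the strongest. The median percentile was 56.6 in Ma_1057, 44.0 in Ma_1064 and 57.3 in Ma_1069, against 32.1 in Ma_1062 and 37.7 in Ma_1456. The strongest 10% of the list contained 7.17%, 4.14% and 11.7% of the female-private peaks, and 1.18% and 1.38% of the male-private ones. These values describe the peaks that chose the regions, and no test applies to them.

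**Figure D2:**
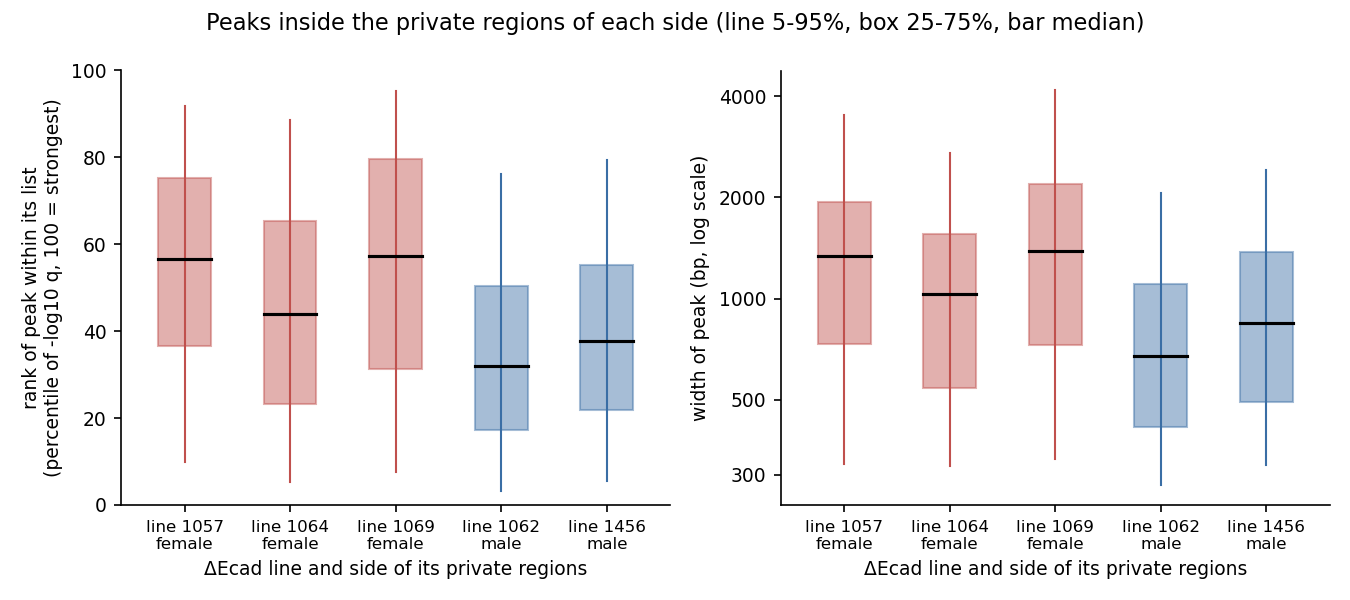
Rank within the list (left, percentile of −log10 q) and width in bp (right, log scale) of the peaks inside private regions, for the 3 female and 2 male ΔEcad lines, with lines spanning 5% to 95% of the peaks, boxes the quartiles and bars the medians. The female medians of rank (44.0 to 57.3) lay above the male medians (32.1 and 37.7), while the boxes overlapped.

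The strongest female-private region covered 8671 bp (chr14:54747385-54756055) within an intron of Slc7a8, which encodes an amino acid transporter. Its fold enrichment over local background was 80.6 in Ma_1057, 46.2 in Ma_1064 and 78.9 in Ma_1069. Its percentile was 99.0 or higher in all 3. A 5404 bp region between genes, 22583 bp from the start of Tamm41 (chr6:115060459-115065862), had values of 49.8, 39.6 and 39.7. Both regions were chosen by rank, so their high place in each list follows from that choice, and neither lay near the calling threshold.

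Others of the 12 strongest were nearest to Adgrl2, Foxn3, Rnf144b, Gne, Fbxl7, Prrx1, Mymx, Slc35b3 and Arhgap26. The one at Foxn3, a forkhead transcription factor gene, covered its start (6222 bp, chr12:99326672-99332893) with fold enrichments of 36.5, 18.3 and 24.6. The one nearest to Prrx1, a homeobox transcription factor gene, lay 88660 bp from its start (chr1:163196494-163200564). Of the regions named here, those at Tamm41 and Gne had a peak in all 4 Ecad lists, Slc7a8 in 3, Rnf144b in 1 and the others in 2, and Ma_1007 called each of them. All 12 were still female-private with lists of equal length. At the other end, the weakest female-private region, near Cep68 (chr11:20248293-20249216), had −log10 q of 5.54 to 7.40 in the female lists, against a calling threshold of 5.

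The strongest male-private regions ranked lower. The first, 3926 bp at chr10:88306800-88310725 and 46271 bp from the start of Dram1, a lysosomal membrane protein gene, had fold enrichments of 40.7 in Ma_1062 and 30.5 in Ma_1456. A 4434 bp region (chr8:93671843-93676276) had its nearest coding start 133690 bp away, at the G protein gene Gnao1, with values of 37.5 and 27.3. The third lay 5383 bp from Olfr477 (chr7:107977774-107981310), with values of 30.5 and 36.7, and had no peak in any Ecad list. A 6231 bp region covered the start of Lgi4 (chr7:31058890-31065120), which encodes a secreted protein of glial cells, with values of 24.6 and 19.95. Those that followed were nearest to Dennd4b, Slco1a4, Ndfip1, D3Ertd751e, Hpgds, Tbc1d22a, Tob1 and Fam184b. Apart from the region near Olfr477, the other 11 each had a peak in at least 3 of the 4 Ecad lists. All 12 remained male-private with lists of equal length. The weakest male-private region, near Tom1 (chr8:75047420-75047951), had −log10 q of 5.20 and 5.76.

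The 4 Ecad lists were not used to choose the regions, and so show where else the regions were called. Female-private regions had a peak in 23.4% of cases in the female Ecad line Ma_1014 and 22.6% in Ma_1039, and in 72.7% in the male Ecad line Ma_1007 and 32.4% in Ma_1181. Over all joined regions the percentages were 50.8, 53.0, 67.3 and 46.3. All joined regions include 10534 called in 1 male ΔEcad list alone and 7414 in 1 female ΔEcad list alone, which a private region by rule cannot be. Female-private regions were thus called less often than regions at large in Ma_1014, Ma_1039 and Ma_1181, and more often in Ma_1007 with full lists. The female Ecad mean was 23.0% ± 0.563 (SD, n = 2) and the male Ecad mean 52.6% ± 28.5 (SD, n = 2), a difference of −29.6 percentage points (exact two-sided permutation test over 6 splits, P = 0.33, the smallest P that 2 lines against 2 allow). Both female Ecad lines called fewer of the regions private to the female ΔEcad lines than either male Ecad line did.

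Ma_1007 stood apart from the other Ecad lines. It had the longest list, with 40824 autosomal peaks against 25115 to 28485 in the other Ecad lists, and it alone among the Ecad lines called 403 female-private regions (32.1%). With all 9 lists cut to 20350 peaks, female-private regions were called in 22.3% of cases in Ma_1014, 20.2% in Ma_1039, 50.2% in Ma_1007 and 32.2% in Ma_1181. All regions were then called in 48.6%, 50.5%, 52.6% and 47.9%, so with equal length Ma_1007 also called female-private regions less often than regions at large. Without Ma_1007 the difference between the sexes was −9.40 points, and without Ma_1181 it was −49.7 points. No Ecad list called 253 of the female-private regions (20.2%), against 23.2% of all regions, which include those called in a single ΔEcad list.

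Male-private regions were common in the Ecad lines of both sexes. They were called in 75.1% of cases in Ma_1014, 77.9% in Ma_1039, 77.9% in Ma_1007 and 68.0% in Ma_1181, above the share of all regions in each line. All regions include those of a single ΔEcad list, which a male-private region by rule cannot be. The female Ecad mean of 76.5% ± 1.96 (SD, n = 2) and the male Ecad mean of 72.9% ± 7.03 (SD, n = 2) differed by less than the spread between the male lines (exact two-sided permutation test, P = 1). All 4 Ecad lists called 911 male-private regions (46.7%), and 99 (5.07%) were in none. Among regions over 1 kb from a TSS the female Ecad lines called 68.6% and 75.3% and the male Ecad lines 64.0% and 51.1% (difference 14.4 points, exact two-sided permutation test, P = 0.33, the smallest possible).

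**Figure D3:**
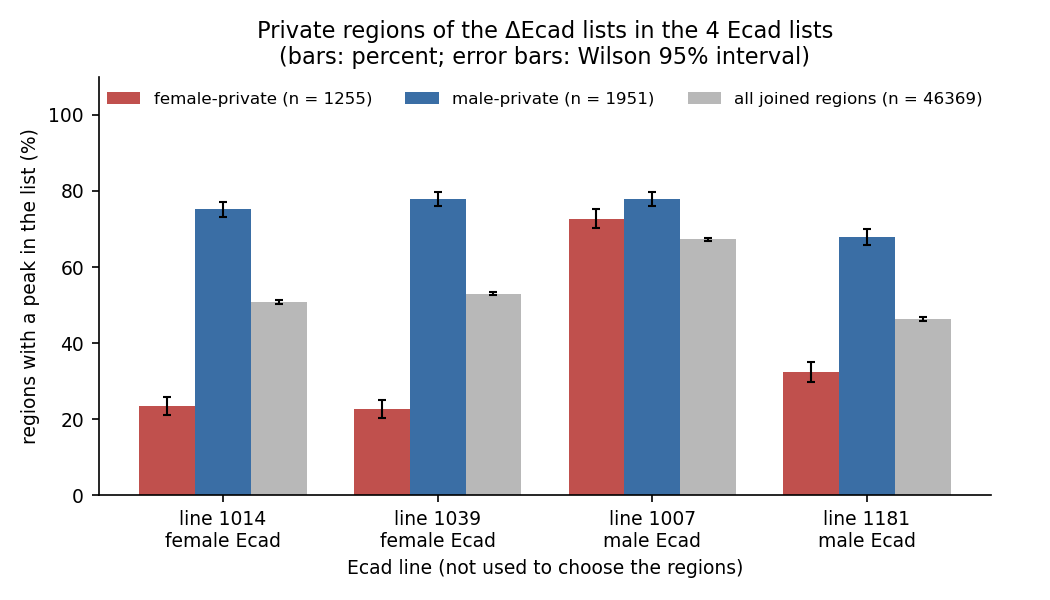
Percent of regions with a peak (vertical axis) in each of the 4 Ecad lists (horizontal axis), for female-private, male-private and all joined regions, with Wilson 95% intervals for counting error. Female-private regions stood below all regions in Ma_1014, Ma_1039 and Ma_1181, and male-private regions stood above all regions in the 4 lines.

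Private promoters of protein-coding genes were few on the female side, where 3 lists had to agree, and more numerous on the male side, where 2 did. A gene's promoter counted as called where any of its transcripts started within 1 kb of a peak. Among 20807 coding genes on the autosomes, 48 (0.231%) had a promoter called in all 3 female lists and neither male list, and 722 (3.47%) had one called in both male lists and no female list. The 5 lists called 6488, 7214 and 5466 coding promoters in Ma_1057, Ma_1064 and Ma_1069, and 8263 and 8428 in Ma_1062 and Ma_1456. The 2 sides did not overlap in this number, with means of 6389 ± 878 (SD, n = 3) and 8346 ± 117 (SD, n = 2; exact two-sided permutation test, P = 0.2). The same lists cut to equal length called 5894, 6006 and 5466 against 7603 and 7142 (exact two-sided permutation test, P = 0.1, the smallest possible), a comparison added after the data were seen. The 4 Ecad lists called 8577 to 10397.

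Of the 48 female-private promoters, 44 were also called in Ma_1007, 21 in Ma_1181, 14 in Ma_1014 and 13 in Ma_1039, and 3 in none of them. These were 91.7%, 43.8%, 29.2% and 27.1%, beside 49.97%, 44.9%, 42.3% and 41.2% of all coding promoters. The female-private share was thus above that of all promoters in Ma_1007, near it in Ma_1181 and below it in both female Ecad lines. All promoters include those that no ΔEcad list called, which a private promoter by rule cannot be. Of joined regions within 1 kb of a TSS, Ma_1007, Ma_1181, Ma_1014 and Ma_1039 called 73.4%, 41.6%, 31.2% and 31.8% of the female-private ones. They called 85.7%, 74.8%, 73.6% and 74.5% of all such regions, so the female-private share was below these in each line. Of the 722 male-private promoters, the same lines called 95.2%, 89.9%, 85.0% and 82.4%, above the share of all promoters in each line, and 499 (69.1%) were called in all 4 Ecad lists and 5 in none. Of male-private regions within 1 kb of a TSS they called 90.7%, 83.5%, 81.2% and 80.3%, above all such regions in each line but by less. The female-private promoters of the gene lists considered here were those of Sp5, Tcf7 and Esr1, and the male-private ones were those of Fn1, Egr1, Tgfb1 and Tgfbr1.

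Sp5, Tcf7 and Esr1 belong to the pathways that this study addressed. Sp5 encodes a zinc finger transcription factor and is a direct target of β-catenin. The region over its start (5490 bp, chr2:70470262-70475751) had −log10 q of 40.02 in Ma_1057, 24.9 in Ma_1064 and 49.3 in Ma_1069, with peak widths of 1365, 907 and 5490 bp. Upstream, 3 further female-private regions lay 29504, 47147 and 54889 bp from a start site of Sp5, with fold enrichments of 16.9, 11.7 and 24.2 in the nearest. In a window of 100 kb to each side of Sp5, neither male ΔEcad list and neither female Ecad list had a peak, whereas Ma_1181 had a peak in all 4 regions and Ma_1007 in 2.

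Tcf7 encodes a DNA-binding partner of β-catenin. Its promoter region (chr11:52283502-52285534) had −log10 q of 81.8 in Ma_1057, 16.9 in Ma_1064 and 91.9 in Ma_1069, and was also called in Ma_1007 and Ma_1181. A second region 2893 bp from a start site (chr11:52285907-52287748) had values of 18.9, 11.6 and 31.7. Both regions were thus past the calling threshold of 5 in every female list.

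Esr1 encodes oestrogen receptor α. The region over one of its start sites (1275 bp, chr10:4612001-4613275) had fold enrichments of 13.8 in Ma_1057, 8.42 in Ma_1064 and 6.79 in Ma_1069, and −log10 q of 41.1, 19.9 and 13.7. Inside introns, 3 further regions were female-private, the strongest at chr10:4985396-4988303 with fold enrichments of 22.8, 19.3 and 27.9. Of the Ecad lines, Ma_1007 called 3 of the 4 Esr1 regions and the others called none. The oestrogen response list had 2 other genes nearest to female-private regions, Nrip1 with 2 and Greb1 with 1, and none nearest to male-private regions.

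Of 20 autosomal β-catenin targets, 7 were the coding gene nearest to a female-private region and 1 to a male-private region. Over all coding genes the shares were 4.47% and 7.90%. These are not like for like, since the 20 targets had 214 joined regions nearest to them, against 46369 for 20807 coding genes. The 7 were Sp5 with 4 regions, Tcf7, Nkd1, Myc and Tnfrsf19 with 2 each, and Axin2 and Ccnd1 with 1 each, and Tnfrsf19 was also the 1 gene on the male side. Counted by region, 14 of the 214 joined regions nearest to these genes (6.54%) were female-private and 1 (0.467%) was male-private, beside 2.71% and 4.21% over all regions. Axin2, a negative feedback gene of the pathway, had a called promoter in all 5 lists, and its female-private region lay 72911 bp away (chr11:108845125-108847438). The strongest of the β-catenin list lay between genes, 34434 bp from a start of Nkd1, another feedback inhibitor (5615 bp, chr8:88481306-88486920). It had fold enrichments of 29.9, 9.31 and 34.7, and all 4 Ecad lists called it.

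The Wnt-pathway genes Dact1 and Kremen1, which were not in that list, were among the 8 genes nearest to the most female-private regions. Dact1, which encodes a Dishevelled-binding protein, had 6, of the 9 joined regions nearest to it. Those 148024, 171088 and 214922 bp from the Dact1 start lay in introns outside Dact1, and Ma_1014 called each of them. Of all 6, Ma_1007 called 5, Ma_1014 and Ma_1181 called 3 each and Ma_1039 called 2. The region 1931 bp from the Dact1 start (2628 bp, chr12:71305326-71307953) had fold enrichments of 42.8 in Ma_1057, 21.1 in Ma_1064 and 26.5 in Ma_1069. The region over the start itself (4536 bp, chr12:71309004-71313539) had values of 10.2, 10.2 and 15.1. Kremen1, which encodes a Dickkopf receptor, had 6 of 13 joined regions, from 468 to 3445 bp wide, of which Ma_1007 called 5, Ma_1181 called 3 and Ma_1014 and Ma_1039 called 1 each.

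**Figure D4:**
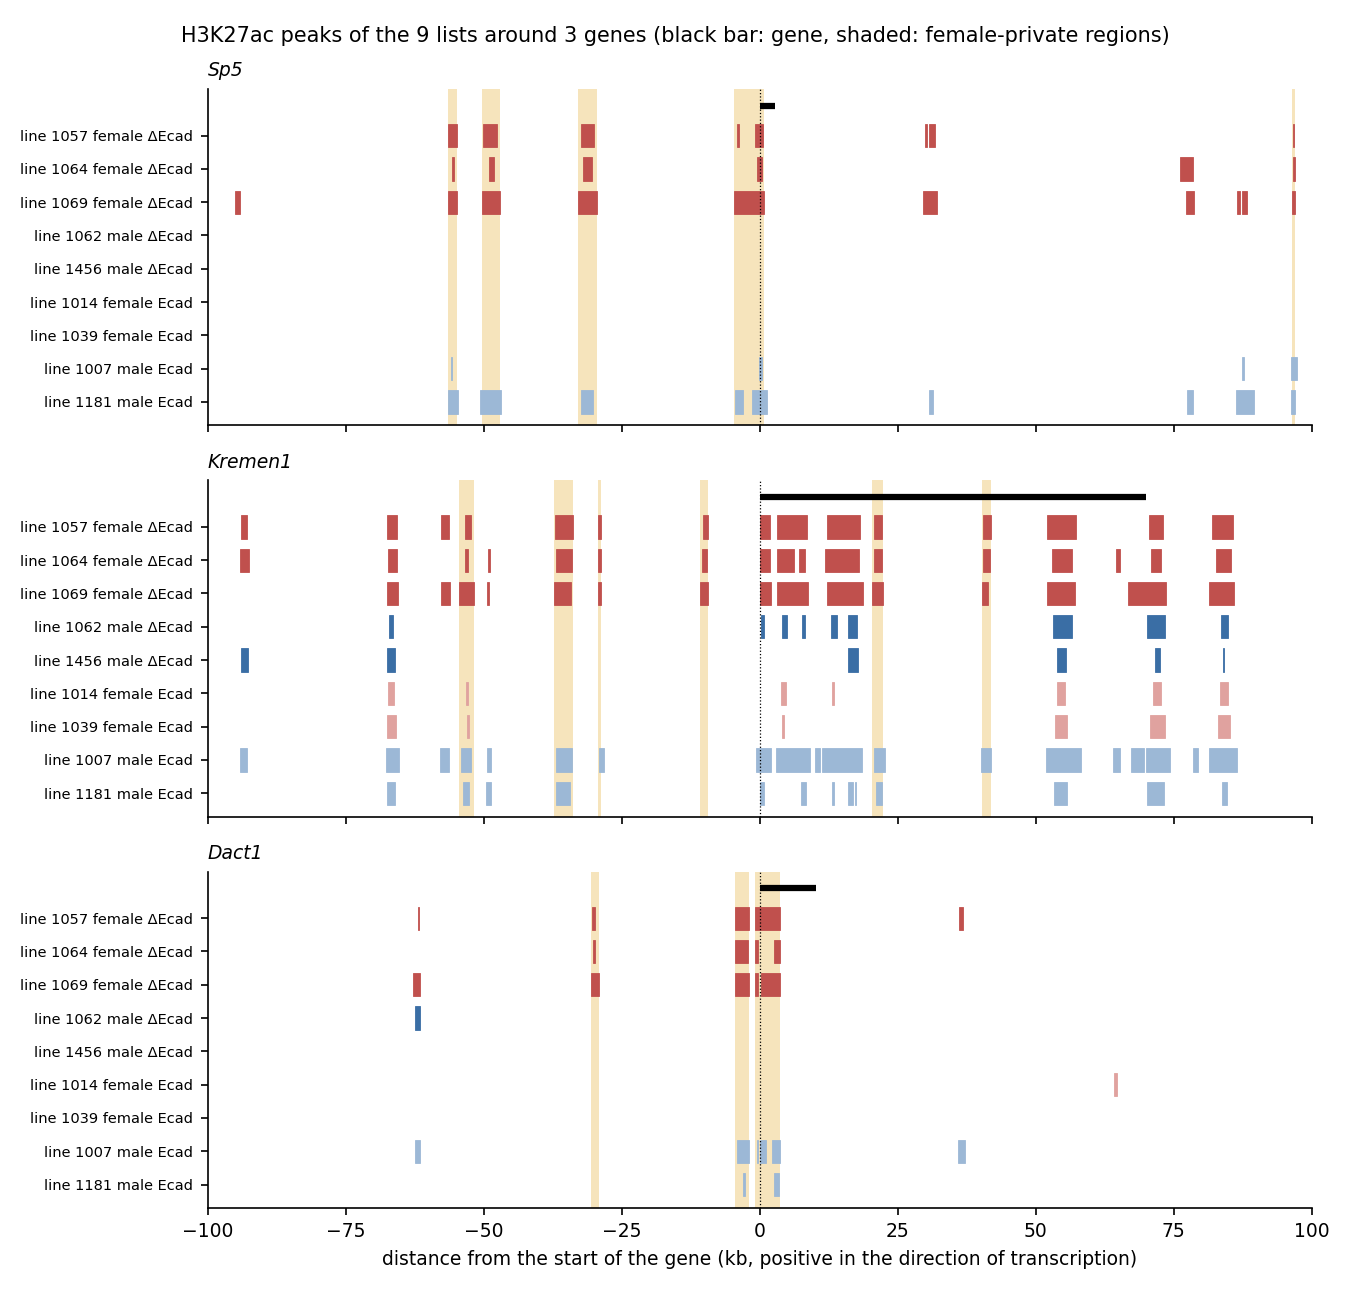
Called H3K27ac peaks of the 9 lists (rows) around Sp5, Kremen1 and Dact1, by distance in kb from the start of the gene, with shading over the female-private regions and a black bar for the gene. Around Sp5 neither male ΔEcad list nor female Ecad list had a peak, while at Kremen1 all 5 ΔEcad lists shared peaks inside the gene and 4 of the private regions lay upstream of its start.

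Other genes had as many or more female-private regions. Tiam2, which encodes an activator of the GTPase Rac, had 8 of 21, of which 7 lay inside the gene, with percentiles of 19.2 to 68.8, and neither Ma_1014 nor Ma_1039 called any of them. Robo1, a Slit receptor gene, had 7 of 25, of which Ma_1007 called 6. Il17rd, which encodes an inhibitor of FGF and RAS-MAPK signalling, had 6 of 8, all called in Ma_1007 and none in either female Ecad line. Itpr2, Thsd4 and Efna5 had 5 each, tied with other genes and named for their higher summed percentile, since 10 genes had at least 5. Efna5 was also nearest to 2 male-private regions and Robo1 to 1. On the male side Fam53b and Apbb2 had 5 each, and Grm7, Vwc2, Lclat1, Pid1 and Cyp2d22 had 4 each. Pid1 was also nearest to 1 female-private region. Moxd1 had 3 and was named from many genes tied at that number by its summed percentile, since 43 genes had at least 3 and 7 at least 4. At Fam53b the Ecad lines called 4 or 5 of the 5 regions, and the widest, over a start site, spanned 7636 bp (chr7:132797490-132805125).

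The 1255 female-private regions had 930 distinct nearest coding genes, 63 of them nearest to at least 3. The 1951 male-private regions had 1641, with 43 nearest to at least 3. Only 91 genes were nearest to private regions of both sides.

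Female-private regions were also nearest to genes of several other lists. Each count is to be read beside 4.47% of all coding genes and 2.71% of all regions on the female side and 7.90% and 4.21% on the male side. The gene shares are not like for like, since a gene with more joined regions near it is more easily nearest to a private one. The 17 RAS-MAPK feedback genes had 204 joined regions and the 17 pigmentation genes 157, against 46369 for 20807 coding genes. The shares of regions take this number into account. Of 17 genes of RAS-MAPK feedback, 6 (35.3%) were nearest to female-private regions (11 regions, 5.39% of the 204 nearest to the list) and 2 (11.8%) to male-private ones (4 regions, 1.96%). Of 17 autosomal pigmentation genes, 5 (29.4%) were nearest to female-private regions (9 regions, 5.73%) and 3 (17.6%) to male-private ones (3 regions, 1.91%). Slc24a5, a melanosomal ion exchanger gene, had 4 female-private regions between 40358 and 159375 bp from its start. The start of Kit, the melanocyte growth factor receptor gene, lay 106 bp from a 4003 bp female-private region (chr5:75575061-75579063) with fold enrichments of 12.1, 5.38 and 13.6. No Ma_1064 peak lay within 1 kb of a Kit start site, and the Ecad lines Ma_1039, Ma_1007 and Ma_1181 also called the region. Neural crest genes numbered 6 (28.6%) and 2 (9.52%) of 21 on the female and male sides, with 4.10% and 2.05% of the regions nearest to them private. The oestrogen response genes described above, 3 of 18 (16.7%), held 7 female-private regions, 11.7% of the 60 nearest to that list. EMT and invasion genes numbered 3 and 3 of 21 (4.64% and 3.31% of their regions), and YAP/TEAD targets 3 and 3 of 23 (2.73% and 1.36%). TGF-β and BMP genes numbered 4 and 5 of 21 (3.82% and 3.18%), cadherins and catenins 2 and 4 of 17 (1.48% and 3.70%), and AP-1 factors 0 and 1 of 13 (0% and 2.78%).

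The male-private promoters of the lists ranged from near the calling threshold to a mean percentile of 64.5. Egr1, an immediate-early transcription factor gene of the RAS-MAPK pathway, had fold enrichments of 5.75 in Ma_1062 and 6.29 in Ma_1456 over its start, and all 4 Ecad lists called the region. Tgfb1, the gene of a TGF-β ligand, had 7.62 and 8.65 (2256 bp, chr7:25687018-25689273), and Tgfbr1, the gene of its type I receptor, had 3.43 and 7.85 (979 bp, chr4:47353326-47354304). Fn1, which encodes fibronectin, had 3 male-private regions, and the strongest (849 bp, chr1:71653424-71654272) had 7.20 and 10.5, while another at a start site (857 bp, chr1:71652112-71652968) had a mean percentile of 4.65. Ma_1039 and Ma_1007 called all 3 Fn1 regions, and Ma_1014 and Ma_1181 called none.

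The base composition of the sides differed, mainly near start sites. In windows of 300 bp centred on the summit of the strongest peak, an observed to expected CpG ratio above 0.6 was found in 24 female-private windows (1.91%) and 568 male-private windows (29.1%), beside 13.3% over all regions. Within 1 kb of a TSS it was found in 7.51% of female-private, 54.3% of male-private and 40.7% of all windows. Over 1 kb from a TSS the shares were 1.02%, 1.82% and 1.39%. In female-private regions within 1 kb of a TSS, the summit windows were thus mostly CpG-poor. Those of male-private regions within 1 kb of a TSS were CpG-rich more often than those of all such regions. The windows were centred on summits, not on start sites.

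Words of the TCF/LEF motif (CTTTGAT or CTTTGAA, either strand) were in 212 of the female-private windows (16.9%), 188 of the male-private windows (9.64%) and 12.04% of all windows of the same length. Over 1 kb from a TSS the shares were 18.3%, 13.1% and 13.7%. When each line was left out in turn, the female-private share ranged from 14.9% to 16.8% and the male-private share from 9.15% to 11.8%. The sides were closest without Ma_1062, at 14.9% and 11.8%. With lists of equal length the shares were 15.8% and 8.90%. These alternatives were added after the data were seen. The count is a description of letters, not of bound sites, and neighbouring regions share base composition.

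The other motifs gave the following shares. TEAD (GGAATG) was in 15.7% of female-private, 14.6% of male-private and 15.5% of all windows, AP-1 (TGAGTCA or TGACTCA) in 4.70%, 4.77% and 5.57%, and MITF (CACGTGA or CACATGA) in 7.97%, 5.54% and 6.77%. SOX (ACAATGG or ACAAAGG) was in 11.1%, 8.71% and 10.8%, RUNX (TGTGGTT) in 7.33%, 5.69% and 6.49%, and ETS (CCGGAAG) in 1.43%, 3.84% and 2.71%. The ETS share on the female side was thus below that of all windows, and that on the male side above it, both farther in proportion than for TCF/LEF. Within 1 kb of a TSS, ETS words were in 2.31% of female-private (4 windows), 6.31% of male-private and 6.05% of all windows. Farther than 1 kb they were in 1.29%, 1.18% and 1.25%, so the sides were close there. The palindromic oestrogen response element without mismatch was in 0 female-private, 1 male-private and 17 of all windows. All words were searched on both strands, and no word of one motif contains a word of another.

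The private regions were not spread evenly over the autosomes. Chromosome 12 had 106 female-private and 25 male-private regions (4.79% and 1.13% of its joined regions), and chromosome 16 had 59 and 16 (3.51% and 0.952%). Chromosome 5 had 39 and 189 (1.42% and 6.90%), and chromosome 8 had 53 and 141 (2.42% and 6.45%). The lists also differed in the share of all peaks that fell on these chromosomes. Chromosome 12 held 5.23%, 5.99% and 4.49% of the peaks of Ma_1057, Ma_1064 and Ma_1069 and 3.93% and 3.89% of those of Ma_1062 and Ma_1456, and chromosome 16 held 2.59% in Ma_1062 and 3.42% to 4.43% in the other 4 lists. On chromosome 5 the shares were 5.79%, 4.51% and 5.80% against 5.83% and 6.82%. On chromosome 8 they were 4.95%, 3.71% and 5.64% against 5.31% and 4.52%, with the highest in a female list. The part of these differences in the private counts was not tested.

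**Figure D5:**
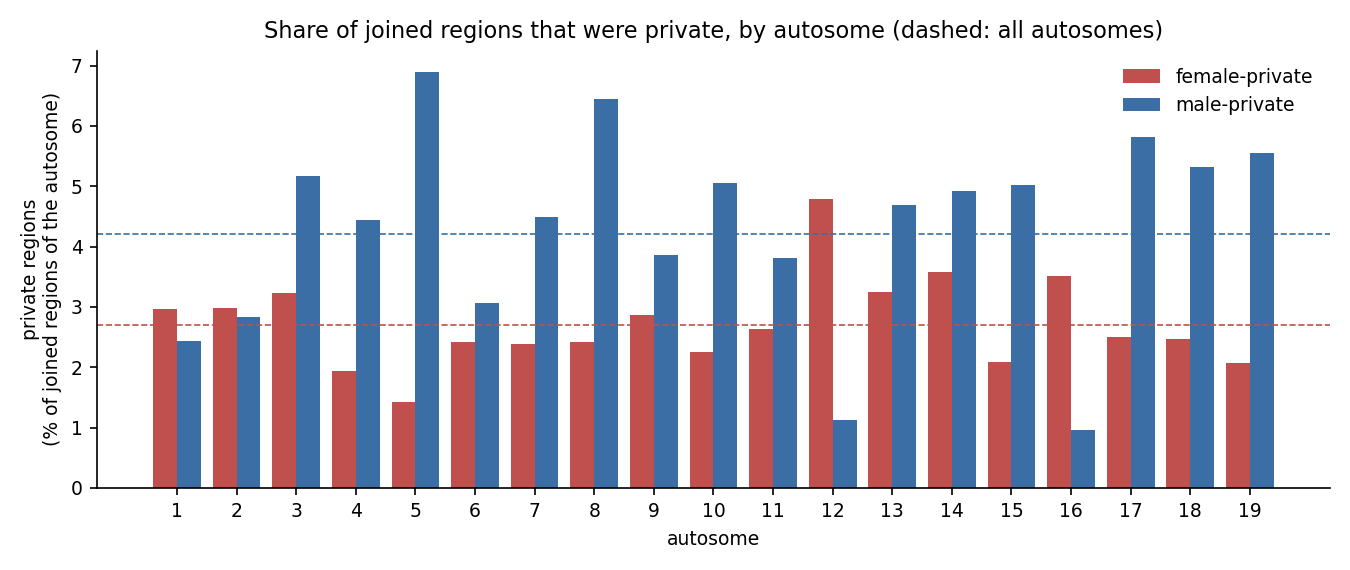
Private regions as a percent of the joined regions of each autosome (vertical axis) for the female and male sides, with dashed lines at 2.71% and 4.21%, the shares over all autosomes. Female-private regions outnumbered male-private ones on chromosomes 1, 2, 12 and 16.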

How the data were processed

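H3K27ac ChIP-seq of 9 lines was available as 1 peak list per line, and 4 input samples (1 per sex and genotype) were not analysed here. Reads had been aligned to GRCm38 (mm10), and the submitters' processing notes name Bowtie2 2.4.5, MACS2 2.2.7.1 and deepTools 3.5.1.0.0. Peak-caller settings and which input served which list are not given in the sources used here. The deposited columns hold a score, a linear fold enrichment (ratio) and the −log10 of the p-value and q-value of each peak, as the authors' peak caller wrote them, and no −log10 q was below 5 (q 1e-05). The deposited fold and −log10 q describe peaks within a list, are given side by side and were not tested between lines. Since such lists carry no reads, depth is unknown and a missing peak is a peak not past the threshold.

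Peaks of the 5 ΔEcad lists on 19 autosomes were joined when they overlapped or touched, and a list called a region when any base of a peak overlapped it. TSSs were those of GENCODE M21 transcripts. Lines were the replicates and were compared by exact permutation tests (Python 3.11.15, numpy 2.4.6, scipy 1.17.1); where nothing was tested, values are descriptions, since the calls chose the regions. The joining was tested on simulated peaks. Genes named were, per side, those nearest to the 12 private regions of highest mean percentile, up to 8 coding genes nearest to the most private regions (at least 3), and list genes with a private promoter. One of the 12 female-private regions is not reported here. Other named genes (Axin2, Nkd1, Myc, Ccnd1, Tnfrsf19, Nrip1, Greb1, Slc24a5, Kit and the 2 weakest regions' genes) were chosen after their values were seen. Regions and gene lists were chosen with earlier results of these data known. Alternatives were equal-length lists, peaks of at least 500 bp, −log10 q of at least 10, joining over 1 kb, peaks covering 50% of the region, absence within 5 kb and leaving out each line.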

Additional observations from a re-analysis of the deposited data

How the results depend on the processing

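No paired analysis was possible because the labels give the lines no replicate numbers that pair them, and the numbers used here only name lines. Private counts stayed within 1.5 times under every alternative that kept all 5 lines, except that 622 female-private regions were left when a peak had to cover 50% of a region. Leaving out a line gave 1469 to 2492 female-private and 2129 to 9178 male-private regions. The share of private regions within 1 kb of a TSS was 8.61% (female) and 48.8% (male) with coding start sites only, 54.5% (male) with lists of equal length, 55.8% (male) with peaks of at least 500 bp and 46.6% (male) with peaks joined over 1 kb, and leaving out a line gave 13.4% to 17.4% and 25.7% to 52.8%. The median width of female-private and male-private regions was 1935 and 1368 bp with lists of equal length, 1994 and 1344 bp with peaks of at least 500 bp and 1840 and 1263 bp with peaks joined over 1 kb, and leaving out a line gave 1281 to 1765 bp and 603.5 to 1147 bp. The female minus male difference in peak number was −4898 to 233 peaks when a line was left out. The female minus male difference of Ecad lines in calling male-private regions was −1.38 to 8.56 percentage points when a line was left out, and for female-private regions it was −49.7 to −9.40. The cause of these changes was not tested. With 3 lines against 2, no test could pass a threshold of 0.05.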
